A study of Mus musculus with 6 samples.

Results

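Axon guidance genes encode secreted or membrane-bound cues and the receptors that read them, and many are made outside the nervous system. A set of 51 such genes, 25 ligands and 26 receptors of the ephrin, semaphorin, plexin, neuropilin, slit, robo and netrin families, was taken by symbol from the 55471 genes of the deposited table. The cells were 10T1/2, a line described in the labels as embryonic fibroblast, grown without treatment, and polyA RNA was sequenced from 3 libraries labelled Ranbp2 KO and 3 libraries labelled WT. The knockout was made with CRISPR/Cas9, and the design text describes the libraries of each group as biological replicates. Whether the KO-labelled cells are 1 clone or several, and how replicate cultures were kept apart, is not in the labels. The p-values therefore reflect the spread among these libraries, which may be technical.

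Total expected counts ran from 32072817 to 39378190 in KO-labelled libraries and from 41354198 to 46321967 in WT libraries. Ranbp2, which encodes a protein of the cytoplasmic face of the nuclear pore, stood at 294, 289 and 293 CPM (counts scaled to library size) in KO-labelled libraries, against 219.6, 249.96 and 249 CPM in WT libraries. Its log2 difference was 0.28 (SE 0.07, edgeR adjusted p = 0.0120), so the mRNA was not lower under the KO label, and a count per gene cannot show an edit inside the transcript. The libraries are therefore called KO-labelled, and each difference below sets them against the WT ones. Of 12 genes that define fibroblasts, 11 were tested, 5 of them higher and 3 lower at an edgeR adjusted p below 0.05. These calls made up 72.7% of those tested, where 38.9% of all genes tested were called. Named after their values were seen, Fap was near 0 in both groups and Thy1 was almost absent from KO-labelled libraries, at 0.533 ± 0.216 CPM, against 58.3 ± 2.45 CPM in WT libraries (SD, n = 3 each). Dcn, Lum, Col3a1 and Pdgfra were called higher, with log2 differences of 1.98, 2.23, 0.94 and 0.36. Lum needed the KO-labelled libraries to pass the filter on low counts, so its call adds no support beyond its counts. Besides Thy1, Col1a1 and Pdgfrb were called lower, with log2 differences of -0.43 and -0.37. Fn1, the fibronectin gene, was also called higher and was the highest of the 12 genes. It stood at 14511 ± 2736 CPM in KO-labelled and 5860.1 ± 269 CPM in WT libraries.

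Ephrins are cell-surface ligands of the Eph receptor tyrosine kinases: ephrin-A proteins are held by a lipid anchor and ephrin-B proteins span the membrane, and both can also signal back into the cell that carries them. Class 3 semaphorins are secreted and act through neuropilins, which bind them, and plexins, which signal, while other semaphorins stay on the membrane and bind plexins directly. Slits are secreted ligands of robo receptors, and netrins bind Dcc, neogenin and the Unc5 receptors. In connective tissue these systems are known for setting cell boundaries, for cell repulsion and migration, and for guiding vessels and nerves.

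A total of 46 members passed the filter on low counts and were tested with edgeR's quasi-likelihood F test, with p-values adjusted by Benjamini and Hochberg over all 15454 genes tested. At an adjusted p below 0.05, 34 of the 46 were called, 73.9%, where 38.9% of all genes tested were called. Of these, 13 were higher and 21 lower in KO-labelled libraries, 28.3% and 45.7% of the 46, beside 17.6% and 21.3% of all genes. With a threshold of 2-fold added, 9 members were called higher, where 4.41% of all genes tested were, and 11 lower, where 5.73% were, which gave 10.1% of all genes in either direction. The values of the groups did not overlap for 36 members, 78.3% of those tested, beside 51.4% of all genes tested. Slit3, Robo1, Robo2 and Sema6d passed the filter through the WT libraries alone and Sema6a through the KO-labelled ones, so they had to differ. The members were also chosen with earlier results of these data known, so the shares above are given as descriptions. Among further members of these families left out of the set, 7 were tested and 1 was called, 14.3%. The median log2 difference of the 46 members was -0.27, and that of all genes tested 0.014.

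**Figure D1:**
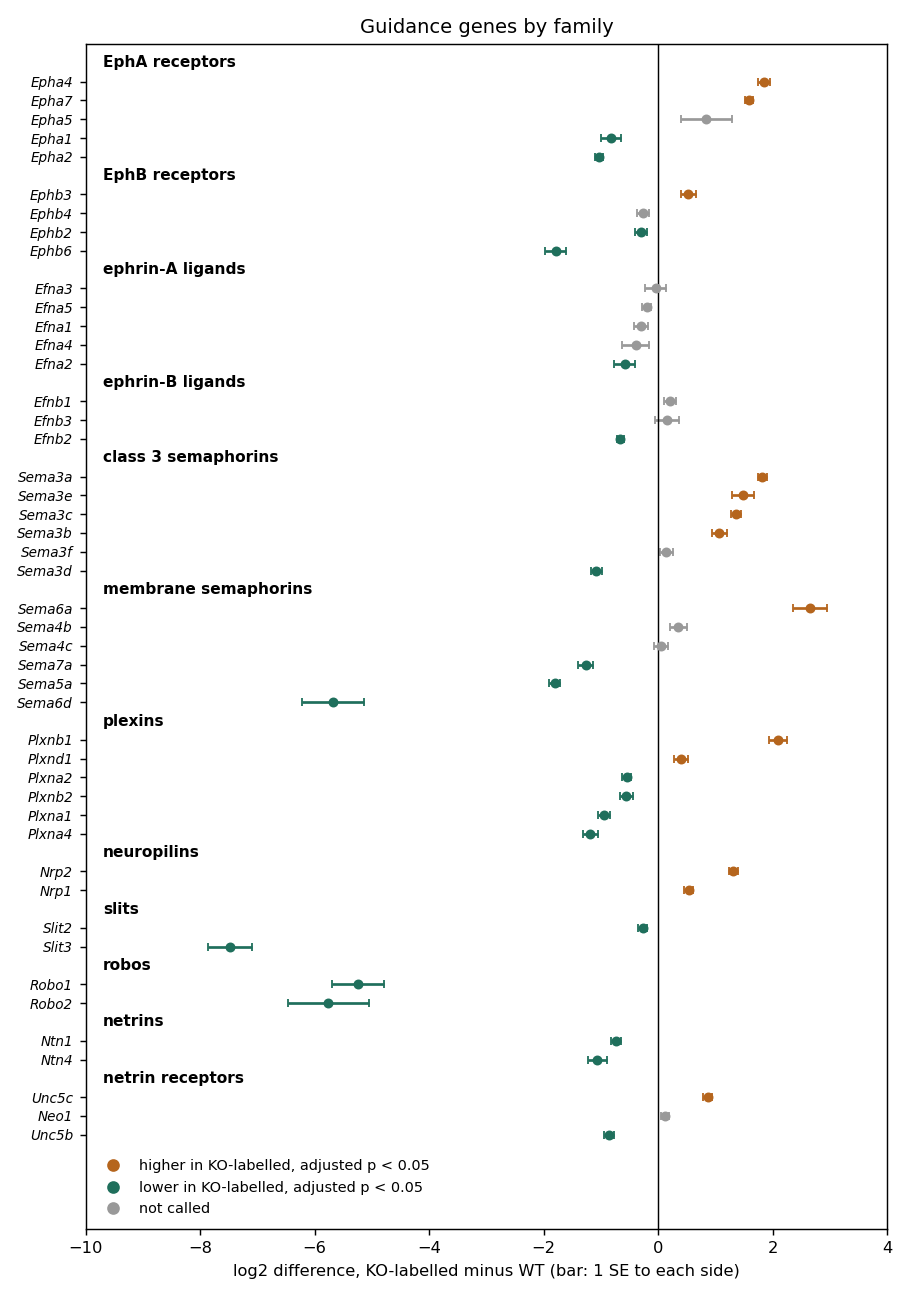
Log2 difference of the 46 tested guidance genes, KO-labelled minus WT, by family, with 1 SE to each side; brown points are higher and green points lower at an edgeR adjusted p below 0.05, grey points were not called. Slit3, Robo2, Sema6d and Robo1 lie between -7.49 and -5.25, and the other 42 members between -1.81 and 2.65.

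Most class 3 semaphorin genes of the set and both neuropilin genes rose. Of the 6 class 3 members, Sema3a, Sema3b, Sema3c and Sema3e rose, Sema3d fell and Sema3f was not called. Sema3g, a class 3 gene outside the set, was not called (log2 difference 0.005, edgeR adjusted p = 0.994). It stood at 0.234 ± 0.0684 CPM in KO-labelled and 0.23 ± 0.0471 CPM in WT libraries (SD, n = 3 each). Sums and shares of the family leave it out. Divided by the length of the merged exons, the family summed to 50.9, 52.5 and 52.4 CPM per kilobase in KO-labelled libraries, against 26.6, 25.8 and 24.9 in WT libraries. In each KO-labelled library the sum was thus higher than in any WT library.

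Sema3a, whose product collapses growth cones and repels migrating cells (ENSMUSG00000028883, chromosome 5, 13125414 to 13602565, plus strand), was the semaphorin gene with the highest CPM in the set. It stood at 329, 343 and 332 CPM in KO-labelled libraries, against 86.8, 93.2 and 104 CPM in WT libraries. The lowest KO-labelled value lay at over 3 times the highest WT value, and the log2 difference was 1.82 (SE 0.08, edgeR adjusted p = 2.51e-07). Sema3c, a cue of neural crest and outflow tract development (chromosome 5, 17574281 to 17730268, plus strand), was measured at 86.9, 86.0 and 86.5 CPM in KO-labelled libraries, against 30.2, 34.3 and 36.5 CPM in WT libraries, a log2 difference of 1.36 (SE 0.08). Its KO-labelled values lay within 1 CPM of each other and apart from the WT values. The neuropilin gene Nrp2, a co-receptor for class 3 semaphorins and for vascular growth factors (chromosome 1, 62703285 to 62818695, plus strand), rose as well. Nrp2 was measured at 136, 159 and 158 CPM in KO-labelled libraries, against 61.4, 57.7 and 63.2 CPM in WT libraries, with a log2 difference of 1.31 (SE 0.08) and no overlap. The Nrp2 counts were not whole in any library, so some of its reads were divided with other genes.

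These 3 genes rose in a ligand and receptor pathway, and the 250 bases upstream of their RefSeq starts (GRCm38.p6, plus strand) are shown to compare their base make-up. Capitals mark GC boxes (GGGCGG on either strand, overlapping matches joined), and the start lies just after the last base.
Sema3a (chr5:13396534-13396783): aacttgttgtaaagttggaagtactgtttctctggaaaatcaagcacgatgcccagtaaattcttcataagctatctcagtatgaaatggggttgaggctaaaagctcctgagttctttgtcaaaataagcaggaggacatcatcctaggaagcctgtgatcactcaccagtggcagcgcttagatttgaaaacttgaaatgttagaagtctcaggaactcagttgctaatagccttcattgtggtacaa
Sema3c (chr5:17574566-17574815): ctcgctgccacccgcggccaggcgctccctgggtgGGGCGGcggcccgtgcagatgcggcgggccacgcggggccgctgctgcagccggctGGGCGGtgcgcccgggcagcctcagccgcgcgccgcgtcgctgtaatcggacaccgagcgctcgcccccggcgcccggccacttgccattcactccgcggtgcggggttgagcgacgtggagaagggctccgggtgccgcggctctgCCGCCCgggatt
Nrp2 (chr1:62703067-62703316): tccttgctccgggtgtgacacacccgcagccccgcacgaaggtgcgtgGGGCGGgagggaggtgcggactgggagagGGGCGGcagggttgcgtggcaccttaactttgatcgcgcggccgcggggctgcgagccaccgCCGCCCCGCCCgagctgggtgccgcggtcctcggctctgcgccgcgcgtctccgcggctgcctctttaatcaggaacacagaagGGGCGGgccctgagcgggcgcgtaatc
The Sema3a stretch holds 2 CpG dinucleotides and no GC box, the Sema3c stretch 39 CpG and 3 GC boxes, and the Nrp2 stretch 32 CpG and 5 GC boxes. Over all 32851 RefSeq windows of this length the median was 6 CpG, and 32.7% held a GC box. None of the 3 stretches held the TATA box TATAAA (12.4% of all windows), the AP-1 motif TGANTCA (6.75%) or the TEAD motif GGAATG (12.6%) on either strand. For Sema3a the RefSeq start lies well inside the longer GENCODE gene. The whole Sema3c stretch also lies inside its GENCODE gene, which begins at 17574281, as do the last bases of the Nrp2 stretch. Counts per gene do not show which start was used.

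Lower-expressed class 3 genes split in direction. Sema3b, a secreted semaphorin lost in some lung tumours, was found at 10.99, 10.8 and 10.1 CPM in KO-labelled libraries, against 5.73, 5.24 and 4.23 CPM in WT libraries (log2 difference 1.07, SE 0.13, edgeR adjusted p = 0.000167). Sema3e, a ligand that binds plexin D1 without a neuropilin, had 2.22, 2.16 and 2.49 CPM in KO-labelled libraries, against 0.843, 0.827 and 0.784 CPM in WT libraries, and rose by 1.48 (SE 0.20) on the log2 scale. In both genes every KO-labelled value exceeded every WT value. Sema3d, a class 3 gene known from heart and vessel development, stood at 7.96, 7.08 and 6.80 CPM in KO-labelled libraries, against 14.8, 15.6 and 15.9 CPM in WT libraries, and fell by 1.08 (SE 0.10) on the log2 scale. Sema3f, which acts mainly through neuropilin-2, had 60.2, 64.8 and 68.3 CPM in KO-labelled libraries, against 68.0, 58.4 and 49.3 CPM in WT libraries, and its groups overlapped (log2 difference 0.14, edgeR adjusted p = 0.358).

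Shares, sums and ratios of members are given as descriptions, with no test. Sema3a made up 46.4% ± 0.670 of the class 3 level per kilobase in KO-labelled libraries and 26.6% ± 3.34 in WT libraries, and Sema3f 23.9% ± 1.18 and 43.6% ± 5.58 (SD, n = 3 each). The most abundant class 3 mRNA per kilobase was thus Sema3a in KO-labelled libraries and Sema3f in WT libraries, on the scale of merged exon length. Without division by length, Sema3a led in WT libraries too, at a mean of 94.8 CPM, against 58.5 CPM for Sema3f.

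**Figure D2:**
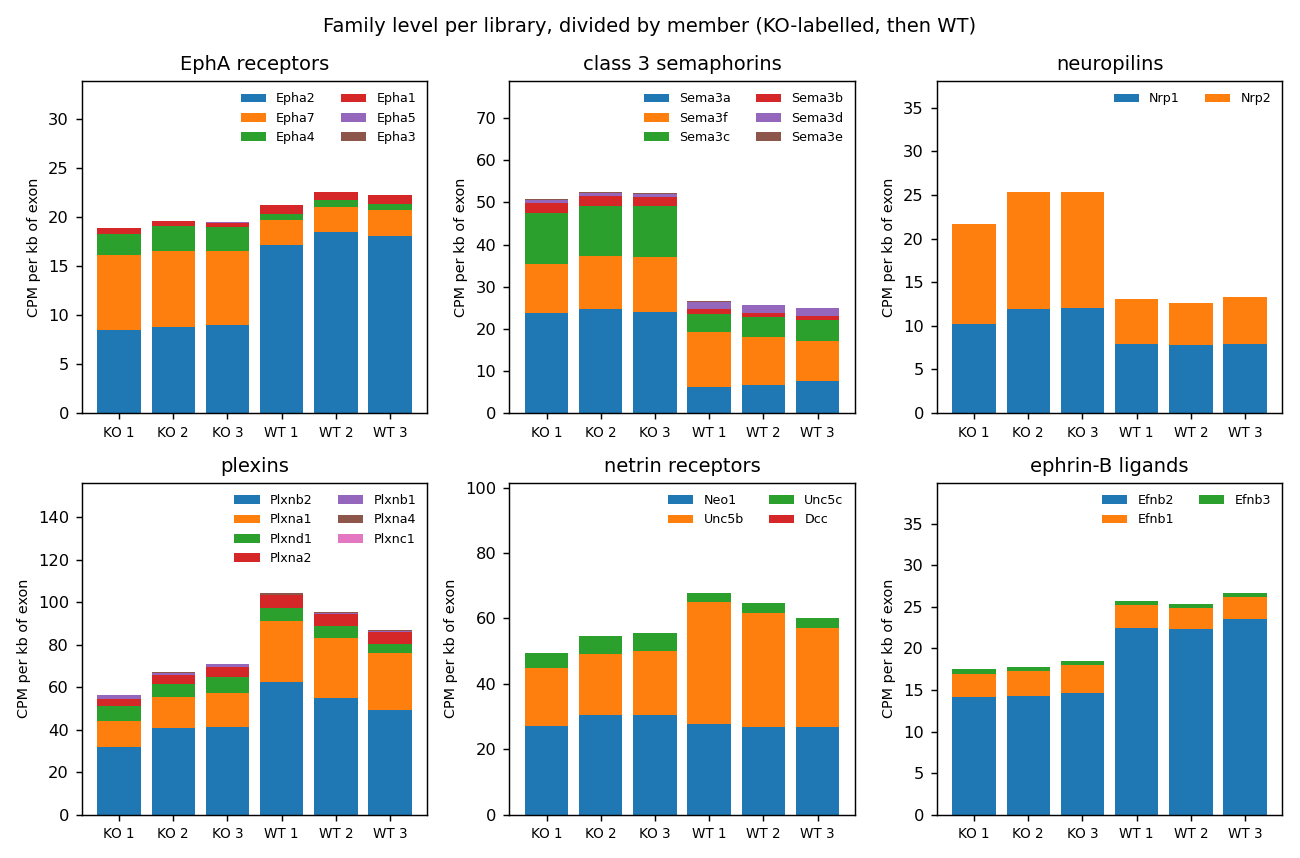
Level of 6 families in each library, in CPM per kilobase of merged exons, stacked by member; KO 1 to 3 are the KO-labelled libraries and WT 1 to 3 the WT libraries. The class 3 semaphorin bars reach 50.9 to 52.5 in KO-labelled and 24.9 to 26.6 in WT libraries, and the EphA bars 18.9 to 19.7 in KO-labelled and 21.3 to 22.6 in WT libraries, with more Epha7 and less Epha2 in the KO-labelled ones.

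Of the 6 membrane semaphorins of the set, 1 rose, 3 fell and 2 were not called. Sema5a, which carries thrombospondin repeats, stood at 4.72, 4.57 and 4.44 CPM in KO-labelled libraries, against 16.3, 16.5 and 15.3 CPM in WT libraries (log2 difference -1.81, SE 0.09, edgeR adjusted p = 6.86e-07). Sema7a, a lipid-anchored semaphorin that binds integrins and plexin C1, had 4.91, 4.72 and 4.66 CPM in KO-labelled libraries, against 9.59, 12.5 and 12.4 CPM in WT libraries, and fell by 1.27 (SE 0.13) on the log2 scale. Neither gene's groups overlapped. Sema6d, a ligand of class A plexins, had 0, 0.0257 and 0.0319 CPM in KO-labelled libraries, against 1.16, 1.28 and 0.879 CPM in WT libraries. With 2 counts over the KO-labelled and 144 over the WT libraries, the WT to KO ratio of CPM was 60.3, with an exact 95% counting interval of 16.4 to 503. Sema6a, a transmembrane ligand of class A plexins, went the other way, with 1.10, 1.39 and 1.34 CPM in KO-labelled libraries, against 0.169, 0.239 and 0.190 CPM in WT libraries (log2 difference 2.65, SE 0.30). Sema4b, at 7.24 ± 1.04 CPM in KO-labelled and 5.67 ± 0.880 CPM in WT libraries, and Sema4c, at 11.5 ± 0.881 and 11.1 ± 1.66 CPM in the same order, were not called (SD, n = 3 each; edgeR adjusted p = 0.0967 and 0.771). Without WT library 1, Sema4b was called higher (edgeR adjusted p = 0.0409).

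Among the receptors of semaphorins, both neuropilins rose, and of the 6 plexins of the set that were tested 2 rose and 4 fell. Nrp1, which binds Sema3a, had 99.7, 117 and 118 CPM in KO-labelled libraries, against 77.3, 76.0 and 77.9 CPM in WT libraries, a log2 difference of 0.53 (SE 0.08, edgeR adjusted p = 0.000527). The Nrp2 to Nrp1 ratio per kilobase was 1.13, 1.12 and 1.11 in KO-labelled libraries, against 0.656, 0.627 and 0.670 in WT libraries. Nrp2 thus stood above Nrp1 in every KO-labelled library and below it in every WT library.

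Plexins carry the intracellular domain that acts on small GTPases. Plxnb2, the plexin with the highest level, stood at 247, 314 and 318 CPM in KO-labelled libraries, against 484, 426 and 382 CPM in WT libraries (log2 difference -0.56, SE 0.12, edgeR adjusted p = 0.00470). Plxna1, which pairs with neuropilin-1, had 110.2, 132 and 147 CPM in KO-labelled libraries, against 256, 255 and 241 CPM in WT libraries, and fell by 0.95 (SE 0.10) on the log2 scale. Both were lower in all 3 KO-labelled libraries, although Plxna1 shares exon bases with Gm26811, a gene on the other strand, and the strand setting of the counts is not given in the sources used here. Plxna2, a receptor of Sema6a, stood at 62.9, 68.1 and 76.3 CPM in KO-labelled libraries, against 105, 102 and 96.4 CPM in WT libraries, and fell by 0.55 (SE 0.08). Plxna4, also a partner of neuropilins, had 2.84, 3.57 and 3.19 CPM in KO-labelled libraries, against 6.96, 7.53 and 7.36 CPM in WT libraries, and fell by 1.19 (SE 0.13) on the log2 scale. The 3 class A plexins of the set thus fell and both neuropilins rose. Plxna3, a class A plexin outside the set, did not fall and was not called. It stood at 17.1 ± 1.98 CPM in KO-labelled and 13.9 ± 2.67 CPM in WT libraries (SD, n = 3 each; log2 difference 0.29, edgeR adjusted p = 0.122).

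Plxnb1, the receptor of Sema4d, had the largest rise of the 6 plexins tested in the set. It had 14.7, 11.2 and 12.5 CPM in KO-labelled libraries, against 3.44, 3.09 and 2.47 CPM in WT libraries (log2 difference 2.09, SE 0.16, edgeR adjusted p = 7.13e-06), and its groups lay far apart. Plxnb1, Plxna4 and Unc5c also share exon bases with gene models on the other strand, so reads there may be divided. The Plxnb1 level per kilobase stayed a small fraction of that of Plxnb2, at 0.0361 ± 0.0104 of it in KO-labelled libraries and 0.00559 ± 0.000337 in WT libraries (SD, n = 3 each). Plxnd1, the Sema3e receptor known from vessel patterning, had 49.9, 47.4 and 54.8 CPM in KO-labelled libraries, against 45.0, 39.0 and 31.8 CPM in WT libraries (log2 difference 0.39, edgeR adjusted p = 0.0264). Leaving out KO-labelled library 1 (edgeR adjusted p = 0.0590), KO-labelled library 3 (0.0930) or WT library 2 (0.0724) ended that call for Plxnd1. With the median of its chromosome subtracted, the log2 difference was 0.22 (edgeR adjusted p = 0.182). Summed per kilobase, the plexins of the set stood at 56.4, 67.1 and 70.98 in KO-labelled libraries, against 104, 95.5 and 86.9 in WT libraries. The sums did not overlap, and they leave out Plxna3 and Plxnb3.

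**Figure D3:**
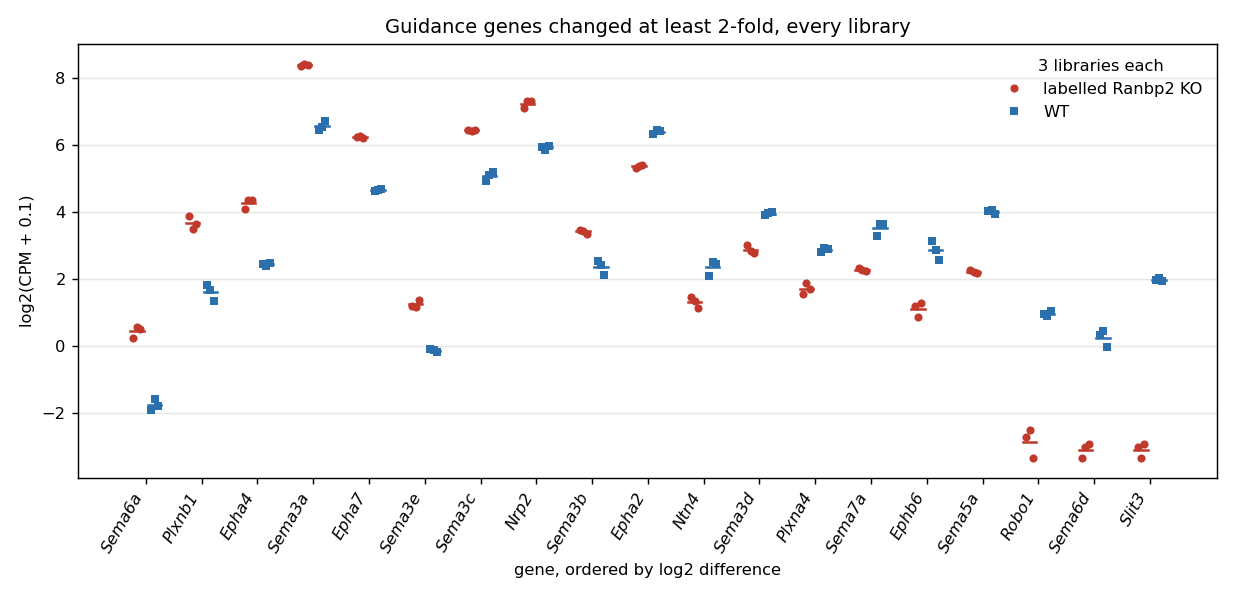
Values of the 19 guidance genes that were called, changed at least 2-fold and averaged at least 1 CPM in the higher group, as log2(CPM + 0.1) in each of 3 KO-labelled (circles) and 3 WT (squares) libraries, with a line at each mean. Within each gene the groups do not overlap, and Robo1, Sema6d and Slit3 lie at the floor of the scale in KO-labelled libraries.

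Among EphA receptors, Epha4 and Epha7 rose while Epha2 and Epha1 fell. Epha2, the EphA receptor best known from epithelia and migrating tumour cells (ENSMUSG00000006445, chromosome 4, 141301240 to 141329384, plus strand), was measured at 39.9, 40.9 and 42.2 CPM in KO-labelled libraries, against 80.5, 86.6 and 84.5 CPM in WT libraries. Epha7, a receptor of developing brain and limb tissue (ENSMUSG00000028289, chromosome 4, 28813131 to 28967499, plus strand), had 75.7, 77.4 and 74.2 CPM in KO-labelled libraries, against 24.7, 25.3 and 25.9 CPM in WT libraries. Both genes had tight replicates and no overlap, with log2 differences of -1.03 (SE 0.07) for Epha2 and 1.58 (SE 0.07) for Epha7, edgeR adjusted p = 2.98e-06 and 1.83e-07. Epha4, a receptor that binds ephrins of both classes (chromosome 1, 77367185 to 77515088, minus strand), was found at 16.8, 20.5 and 20.3 CPM in KO-labelled libraries, against 5.32, 5.18 and 5.49 CPM in WT libraries. Its log2 difference was 1.85 (SE 0.11), and the KO-labelled values were all over 3 times the highest WT value.

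The Epha7 to Epha2 ratio per kilobase was 0.897, 0.894 and 0.832 in KO-labelled libraries, against 0.145, 0.138 and 0.145 in WT libraries. Epha2 made up 45.3% ± 0.919 of the EphA level per kilobase in KO-labelled libraries and 81.3% ± 0.547 in WT libraries, and Epha7 39.6% ± 0.987 and 11.6% ± 0.258 (SD, n = 3 each). The summed EphA level stood at 18.9, 19.7 and 19.5 CPM per kilobase in KO-labelled libraries, against 21.3, 22.6 and 22.3 in WT libraries. Epha1 was low, at 1.95 ± 0.393 CPM in KO-labelled and 3.46 ± 0.0248 CPM in WT libraries (SD, n = 3 each), and fell by 0.83 (SE 0.18) on the log2 scale. It shares exon bases with Zyx, on the other strand. Epha5, at 0.572 ± 0.108 CPM in KO-labelled and 0.322 ± 0.192 CPM in WT libraries (SD, n = 3 each), was not called (edgeR adjusted p = 0.160, but 0.0446 without WT library 1).

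Of 4 EphB receptors tested, 1 rose, 2 fell and 1 was not called. Ephb4, the partner of ephrin-B2 at the artery and vein boundary, had 53.5, 58.7 and 62.3 CPM in KO-labelled libraries, against 78.6, 70.2 and 60.3 CPM in WT libraries, with overlap between the groups (log2 difference -0.26, SE 0.10, edgeR adjusted p = 0.0701). Without WT library 3 it was called lower (log2 difference -0.36, edgeR adjusted p = 0.0109), as it was by DESeq2 (adjusted p = 0.0446), by edgeR with no count filter (adjusted p = 0.00524) and by edgeR with the chromosome median subtracted (adjusted p = 0.0415). Ephb3, known from tissue boundaries in the gut, stood at 43.9, 48.6 and 52.9 CPM in KO-labelled libraries, against 39.2, 34.7 and 27.1 CPM in WT libraries, and rose by 0.52 (SE 0.13). Its groups did not overlap, and neither did those of Ephb2, a guidance receptor of commissural and retinal axons, at 29.5, 36.4 and 36.8 CPM in KO-labelled libraries, against 46.3, 40.1 and 39.7 CPM in WT libraries. The Ephb2 difference of -0.30 was just past the threshold (edgeR adjusted p = 0.0444) and no longer called without KO-labelled library 1 (adjusted p = 0.120), KO-labelled library 2 (0.0602), WT library 1 (0.119) or WT library 2 (0.0715), or with a filter of 1 CPM in 3 libraries (0.0547). Ephb6, which lacks kinase activity, had 2.19, 1.75 and 2.36 CPM in KO-labelled libraries, against 8.65, 7.199 and 5.89 CPM in WT libraries, and fell by 1.79 (SE 0.18) on the log2 scale, the largest EphB change.

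Of the 3 ephrin-B genes, 1 fell and the other two were not called. Efnb2, a transmembrane ephrin that marks arteries and binds EphB receptors and Epha4 (ENSMUSG00000001300, chromosome 8, 8617434 to 8661242, minus strand), was measured at 96.9, 98.1 and 101 CPM in KO-labelled libraries, against 154, 153 and 162 CPM in WT libraries. The 3 KO-labelled values lay together below the WT values, and the log2 difference was -0.66 (SE 0.06, edgeR adjusted p = 2.80e-05). Efnb2 remained the leading ephrin-B mRNA, at 80.3% ± 0.634 of the family level per kilobase in KO-labelled libraries and 88.1% ± 0.523 in WT libraries (SD, n = 3 each). Efnb1, at 10.4 ± 0.988 CPM in KO-labelled and 9.08 ± 0.472 CPM in WT libraries, and Efnb3, at 1.61 ± 0.255 and 1.446 ± 0.133 CPM in the same order, were not called (SD, n = 3 each).

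All 5 ephrin-A genes had log2 differences between -0.59 and -0.05, and 1 was called. Efna5, a repellent of retinal axons and the most abundant ephrin-A mRNA per kilobase, had 22.7, 22.8 and 25.1 CPM in KO-labelled libraries, against 28.8, 26.1 and 26.3 CPM in WT libraries (log2 difference -0.20, edgeR adjusted p = 0.0589). With the median of its chromosome subtracted it was called lower (-0.48, edgeR adjusted p = 0.000995). The gene called was Efna2, at 2.15 ± 0.394 CPM in KO-labelled and 3.23 ± 0.239 CPM in WT libraries (SD, n = 3 each; log2 difference -0.59, edgeR adjusted p = 0.0288). The edgeR adjusted p rose past the threshold on leaving out KO-labelled library 2 (0.0637), KO-labelled library 3 (0.0988) or WT library 1 (0.0569), 2 (0.0592) or 3 (0.0664), or on subtracting the chromosome median (0.0589). Efna1, Efna3 and Efna4 averaged 2.14 to 7.04 CPM in KO-labelled and 2.46 to 8.63 CPM in WT libraries and were not called.

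Slit3, Robo1 and Robo2 had, with Sema6d, the largest differences of the 46 members tested, from low WT levels. These genes passed the filter through the WT libraries alone, so their adjusted p-values add no support beyond the counts. The intervals below cover counting error only and leave out the spread between libraries. Slit3 (ENSMUSG00000056427, chromosome 11, 35121224 to 35708507, plus strand), a secreted ligand of robo receptors, had 0.0261, 0 and 0.0319 CPM in KO-labelled libraries, against 3.81, 4.02 and 3.78 CPM in WT libraries. It was counted 2 times over the KO-labelled and 502 times over the WT libraries, a WT to KO ratio of CPM of 210.4 with an exact 95% counting interval of 57.9 to 1742 (edgeR adjusted p = 6.37e-07). Slit3 was thus present in each WT library and at or near 0 in each KO-labelled one. Robo1 (ENSMUSG00000022883, chromosome 16, 72308306 to 73046095, plus strand), a receptor of all slits, had 0.0522, 0.0770 and 0 CPM in KO-labelled libraries, against 1.83, 1.76 and 1.97 CPM in WT libraries. With 5 and 240 counts in the same order, the WT to KO ratio was 40.2 (interval 17.0 to 125; edgeR adjusted p = 1.88e-05). Robo2, whose gene lies next to Robo1, is given although it was below 1 CPM, at 0.0261, 0 and 0 CPM in KO-labelled libraries, against 0.698, 0.479 and 0.832 CPM in WT libraries. Over the groups Robo2 had 1 and 86 counts, a WT to KO ratio of 72.1 with a wide interval of 12.6 to 2879.7.

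Slit2, by contrast, was the slit gene with a high level in both groups. It stood at 267, 317 and 302 CPM in KO-labelled libraries, against 366, 361 and 343 CPM in WT libraries, with no overlap and a log2 difference of -0.27 (SE 0.08, edgeR adjusted p = 0.0222). Without KO-labelled library 3 (edgeR adjusted p = 0.0532), WT library 1 (0.0535) or WT library 2 (0.0824), Slit2 was not called. The cells therefore held slit ligand mRNA in both groups, whereas robo mRNA summed to 0.00470, 0.00466 and 0 CPM per kilobase in KO-labelled libraries, against 0.152, 0.135 and 0.168 in WT libraries. In bulk RNA, fewer cells that express a gene and less of its RNA per cell cannot be told apart.

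The sequences upstream of the RefSeq starts of Slit3 and Robo1 (250 bases, GRCm38.p6, plus strand) are shown because these genes were nearly absent from the KO-labelled libraries. Capitals again mark GC boxes.
Slit3 (chr11:35121206-35121455): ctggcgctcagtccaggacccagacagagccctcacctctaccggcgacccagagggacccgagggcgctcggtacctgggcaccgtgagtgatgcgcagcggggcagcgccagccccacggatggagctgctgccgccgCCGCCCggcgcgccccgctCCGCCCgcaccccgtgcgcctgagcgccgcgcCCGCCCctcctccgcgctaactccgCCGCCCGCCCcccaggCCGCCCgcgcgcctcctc
Robo1 (chr16:72662899-72663148): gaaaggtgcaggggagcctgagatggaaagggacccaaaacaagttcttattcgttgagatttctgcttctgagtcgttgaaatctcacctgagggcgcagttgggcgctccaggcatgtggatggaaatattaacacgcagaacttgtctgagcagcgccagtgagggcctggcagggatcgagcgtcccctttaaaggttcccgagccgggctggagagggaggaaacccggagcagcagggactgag
The Slit3 stretch holds 35 CpG and 6 GC boxes, and the Robo1 stretch 11 CpG and no GC box. Neither holds the TATA box, AP-1 or TEAD motif on either strand. The RefSeq start of Robo1 lies well inside the longer GENCODE gene. Most of the Slit3 stretch also lies inside its GENCODE gene, which begins at 35121224.

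Both netrin genes of the set fell, and their receptors moved apart. Ntn3, a netrin gene outside the set, was not called, at 0.827 ± 0.126 CPM in KO-labelled and 0.550 ± 0.158 CPM in WT libraries (SD, n = 3 each; log2 difference 0.58, edgeR adjusted p = 0.161). Ntn1, the founding netrin, stood at 24.9, 27.7 and 29.7 CPM in KO-labelled libraries, against 49.2, 44.3 and 44.4 CPM in WT libraries (log2 difference -0.74, SE 0.09, edgeR adjusted p = 0.000121). Ntn4, a netrin of basement membranes, had 2.69, 2.44 and 2.11 CPM in KO-labelled libraries, against 4.21, 5.59 and 5.37 CPM in WT libraries, and fell by 1.07 (SE 0.17) on the log2 scale. In Ntn1 and Ntn4 the groups did not overlap.

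Unc5b, a repulsive netrin receptor of vessels (ENSMUSG00000020099, chromosome 10, 60762593 to 60831581, minus strand), was measured at 110.2, 117 and 123 CPM in KO-labelled libraries, against 232, 218 and 189 CPM in WT libraries. Unc5c, its close relative (ENSMUSG00000059921, chromosome 3, 141465216 to 141834924, plus strand), had 90.2, 103 and 105 CPM in KO-labelled libraries, against 53.0, 56.0 and 54.8 CPM in WT libraries. The relatives moved in opposite directions, by -0.87 (SE 0.09) for Unc5b and 0.86 (SE 0.08) for Unc5c on the log2 scale, edgeR adjusted p = 4.78e-05 and 2.05e-05. The Unc5c to Unc5b ratio per kilobase was 0.268, 0.288 and 0.279 in KO-labelled libraries, against 0.0748, 0.0842 and 0.0946 in WT libraries. Unc5b remained above Unc5c per kilobase in each library.

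Neo1, the neogenin gene, whose product also binds repulsive guidance molecules, had 237, 267 and 265 CPM in KO-labelled libraries, against 243, 235 and 235 CPM in WT libraries. Its groups overlapped and it was not called (log2 difference 0.11, SE 0.07, edgeR adjusted p = 0.245), but after subtraction of the median of its chromosome the difference was 0.28 (edgeR adjusted p = 0.0136). Neo1 was the most abundant netrin receptor mRNA per kilobase in KO-labelled libraries, at 55.2% ± 0.676 of the family, and Unc5b in WT libraries, at 52.98% ± 2.29 (SD, n = 3 each). Without division by length, Neo1 led in WT libraries too, at a mean of 237 CPM, against 213 CPM for Unc5b. Dcc, the receptor of commissural axons, was not tested, with 7 counts over the KO-labelled and 2 over the WT libraries.

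The other members that did not pass the filter were Epha3, Ephb1, Plxnc1 and Slit1. Epha3 had 3 counts over the KO-labelled and 1 over the WT libraries, and Ephb1 had 2 and 0 in the same order. Plxnc1 had 4 counts over the KO-labelled and 20 over the WT libraries, a WT to KO ratio of CPM of 4.19 with an exact 95% counting interval of 1.404 to 16.9. Slit1 had 24 counts over the KO-labelled and 6 over the WT libraries, a KO to WT ratio of 4.77 with an interval of 1.90 to 14.3. Both intervals cover counting error only and leave out the spread between libraries.

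Genes that act with these families moved in both directions. Of 21 further family members, 7 were tested and 1 was called (14.3%, where 38.9% of all genes tested were), Plxnb3, with 1.33 ± 0.531 CPM in KO-labelled and 0.280 ± 0.112 CPM in WT libraries (SD, n = 3 each; log2 difference 2.25, SE 0.41). Of 27 genes of Eph and ephrin signalling, all tested, 4 rose, 10 fell and 13 were not called, so 51.9% were called, beside 38.9% of all genes tested, with a median log2 difference of -0.19. Tiam1, a Rac exchange factor linked to ephrin signalling, fell to 1.81 ± 0.551 CPM in KO-labelled libraries, against 20.2 ± 0.262 CPM in WT libraries, and the kinase gene Src to 27.9 ± 2.59 CPM, against 63.7 ± 2.54 CPM. Pdzrn3, which encodes a ubiquitin ligase with PDZ domains, fell by 1.71 (SE 0.08) on the log2 scale. Grip1, a PDZ scaffold that binds ephrin-B tails, rose to 2.23 ± 0.512 CPM in KO-labelled libraries, against 0.108 ± 0.0127 CPM in WT libraries. Grip1 passed the filter through the KO-labelled libraries alone, so it had to differ, and Plxnb3 needed those libraries to pass it.

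Of 24 tested genes of plexin signalling, 2 rose, 8 fell and 14 were not called, with a median of -0.13. The share called, 41.7%, was close to the 38.9% of all genes tested. Mical2, of a family of plexin-linked enzymes that oxidise actin, stood at 138 ± 9.92 CPM in KO-labelled and 269.5 ± 7.43 CPM in WT libraries, and Rras, a GTPase acted on by plexins, at 27.1 ± 1.04 and 52.3 ± 1.23 CPM in the same order. Fes, a kinase of the plexin pathway, fell by 2.02 (SE 0.28), and Met, the HGF receptor that associates with B plexins, rose by 0.51 (SE 0.07) on the log2 scale. Of 22 tested genes of slit, robo and netrin signalling, 5 rose, 8 fell and 9 were not called, so 59.1% were called, beside 38.9% of all genes tested, with a median of -0.05. Srgap1, which encodes a GTPase-activating protein of the robo pathway, stood at 9.15 ± 0.629 CPM in KO-labelled and 21.5 ± 1.09 CPM in WT libraries. Dapk1, a kinase bound by Unc5 receptors, fell by 2.61 (SE 0.19) and the actin-binding gene Ablim1 by 0.84 (SE 0.07), while Enah, an actin regulator downstream of robo and Dcc, rose by 0.40 (SE 0.07).

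Of 18 tested actin effectors downstream of guidance receptors, 2 rose, 4 fell and 12 were not called, with a median of 0.03. The share called, 33.3%, was below the 38.9% of all genes tested. Pak1, a kinase activated by Rac, stood at 37.2 ± 1.88 CPM in KO-labelled and 64.3 ± 4.15 CPM in WT libraries. The cofilin kinase genes moved apart, Limk1 by 0.49 (SE 0.09) and Limk2 by -0.54 (SE 0.07) on the log2 scale, and Cfl1, the cofilin gene itself, fell by 0.36 (SE 0.08). All p-values behind these calls are edgeR's, adjusted over all genes tested.

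The members were also set beside their neighbours in the genome. Sema3d, Sema3a, Sema3e and Sema3c lie in this order within 5.35 Mb of chromosome 5 (12383385 to 17730268). Of the 10 other tested genes in the stretch, 3 of them protein-coding, 4 rose and 4 fell. The 4 that rose are gene models with no assigned type, 3 within or just beyond Sema3a and 1 beyond Sema3e, and the 4 that fell, Cacna2d1, Hgf, Gm43489 and Gm28710, lie between Sema3e and Sema3c. The 3 at Sema3a lie on its strand, so they may hold Sema3a reads, which was not tested. The other tested genes within 2 Mb had a median log2 difference of 2.74 for Sema3d, 2.26 for Sema3a, 1.33 for Sema3e and -1.35 for Sema3c. Of these genes, 9 of 11 rose and 0 fell for Sema3d, and 9 of 12 rose and 0 fell for Sema3a. For Sema3e 4 of 7 rose and 1 fell, and for Sema3c 3 of 8 rose and 5 fell. Sema3b, Sema3f and Plxnb1 lie on chromosome 9, where the median of genes tested was -0.17. Within 2 Mb of Sema3b, 50 of 93 other tested genes fell and 1 rose, and within 2 Mb of Plxnb1, 48 of 93 fell and 2 rose, while Sema3b and Plxnb1 rose. Within 2 Mb of Slit3, 6 other genes were tested, with a median of 0.16, of which 2 rose and none fell. The closest tested genes beside the robo pair, Gbe1 and Hspa13, had log2 differences of -0.19 and -0.06 and were not called. Nrp2, Epha4 and Plxna2 lie on chromosome 1, where the median was 0.29, and their calls held after its subtraction.

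**Figure D4:**
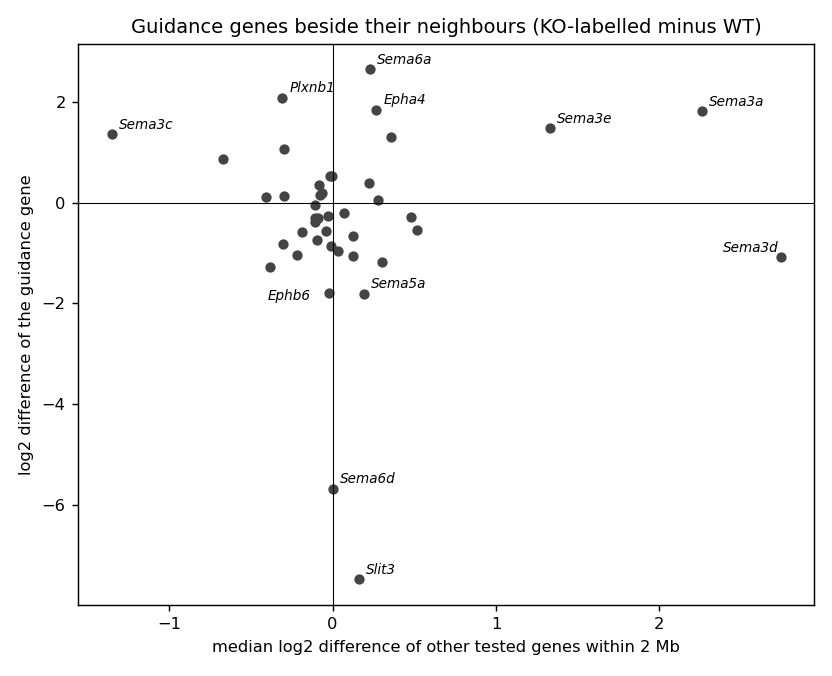
Log2 difference of each guidance gene (vertical) against the median of the other tested genes within 2 Mb (horizontal), KO-labelled minus WT, for members with at least 3 such neighbours. Sema3a and Sema3e share the direction of their neighbours, Sema3d and Sema3c do not, and Slit3 and Sema6d stand far below neighbours near 0. The neighbours of Sema3a, Sema3d and Sema3e include gene models that lie within Sema3a on its strand.

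Markers of other cell types were set beside these results. Of 12 neuronal markers, 4 were tested, 1 higher and 3 lower, and the list summed to 262 to 282 CPM in KO-labelled and 216 to 239 CPM in WT libraries. Most of that sum was Map2, a microtubule-associated protein gene that fibroblast-like cells can express, at 271 ± 10.8 CPM in KO-labelled and 177 ± 8.04 CPM in WT libraries (SD, n = 3 each). Nefl and Nefm had no count in any library. Stmn2 and Tubb3 were named after their values were seen. Stmn2 stood at 0.0363 ± 0.0387 CPM in KO-labelled and 34.6 ± 4.65 CPM in WT libraries. Tubb3 stood at 2.03 ± 0.207 and 15.4 ± 1.10 CPM in the same order. Stmn2 and Gap43, both among the neuronal markers called lower, passed the filter through the WT libraries alone, so they had to differ. The 8 endothelial markers summed to 26.5 to 30.2 CPM in KO-labelled and 35.4 to 39.8 CPM in WT libraries, mostly Tek. Of them 3 were tested, 1 higher and 1 lower, and Cldn5 was at 0 in all libraries. Tek was the marker called lower, and the marker called higher was Vwf, named after its value was seen. Vwf stood at 6.04 ± 0.886 CPM in KO-labelled and 0.269 ± 0.153 CPM in WT libraries. It needed the KO-labelled libraries to pass the filter. The 8 glial markers summed to 34.2 to 42.4 CPM in KO-labelled and 7.08 to 8.41 CPM in WT libraries, mostly S100b, with 3 tested, 1 of them higher, and Olig2 at 0. Epithelial markers, led by Cdh1, summed to 6.16 to 9.16 and 2.16 to 2.63 CPM in the same order, with 1 of 8 tested and higher and Cldn4 at 0. Macrophage and blood markers, led by Cd14, summed to 5.36 to 6.16 CPM in KO-labelled and 8.01 to 8.65 CPM in WT libraries. Of the 8, 4 were tested, 1 higher and 1 lower, and Adgre1 was at 0. Cd14 was the marker called lower, and the marker called higher was Lyz2, named after its value was seen. Lyz2 stood at 0.78 ± 0.0705 CPM in KO-labelled and 0.291 ± 0.049 CPM in WT libraries. Of the tested markers, 100% of neuronal, 66.7% of endothelial, 33.3% of glial, 100% of epithelial and 50% of macrophage and blood ones were called. Of all genes tested, 38.9% were called, and each of these lists held at most 4 tested genes. The part of these markers in the results above was not tested.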

How the data were processed

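The authors deposited expected counts per Ensembl gene for 6 libraries. Per the submitters' processing notes they were made with cutadapt and RSEM on GRCm38. The sources used here give no version, aligner or strand setting. RSEM divides reads that match several genes, and 17.9% of values were not whole (tolerance 0.005), so members with near copies or overlapping genes are uncertain. Symbols, positions (1-based) and merged exon lengths came from GENCODE M21 (GRCm38), which matched 55230 identifiers and not 241. Merged exons can exceed the transcript used, which bears on levels per kilobase.

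Expected counts were rounded, filtered with filterByExpr (minimum count 10, minimum total 15), scaled with TMM factors and compared with edgeR 4.0.16 (R 4.3.3; quasi-likelihood F test, two-sided, genotype as the only term), after a check on simulated counts. CPM use TMM-scaled library sizes, log2 differences are KO-labelled minus WT, and SE comes from the F statistic. Intervals on count ratios are exact binomial and cover counting error only. Across genes, log2 CPM correlated at 0.9853 to 0.9903 within groups and 0.9503 to 0.9572 between groups. Each pair of libraries within a group differed by more than sampling noise, and pairs between groups were not checked for this.

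Members and lists were chosen with earlier results of these data known. Values in every library were given for members called, at least 2-fold changed and at 1 CPM or more in the higher group, and for members at 20 CPM or more; each pathway list gave up to 4 named genes, those with the lowest adjusted p, and each marker list the gene with the highest CPM. Member pairs set as ratios were chosen after their values were seen. Alternatives were DESeq2 1.42.0, other scalings and filters, each library left out, a replicate block and, added after seeing the data, subtraction of the chromosome median. RefSeq windows (GRCm38.p6) were found for 42 members.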

Additional observations from a re-analysis of the deposited data

How the results depend on the processing

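Of the 46 members tested, 33 kept their direction and their side of the threshold under all 13 alternatives, and Sema6d and Robo2 under the 12 run for them, since a filter of 1 CPM in 3 libraries removed them. The number called was 34 and ran from 30 to 34 when 1 library was left out. The calls of Ephb2, Efna2, Plxnd1 and Slit2 were lost under 4 to 7 alternatives. Reversed values were those of 2 members near 0 that were not called: Efna3 (main value -0.05) ran up to 0.0807 when 1 library was left out, in the range -0.154 to 0.0807, and Sema4c (main value 0.05) down to -0.0621 when 1 library was left out, in the range -0.0621 to 0.145, and to -0.235 with the chromosome median subtracted. The 1 call among the 21 further family members became 2 without a count filter, 0 at 1 CPM or more in 3 libraries, and 1 to 3 when 1 library was left out; the cause was not tested. The number of all genes called, 6011, ran from 4353 to 6652. With the replicate number as a block, 31 members and 4994 genes were called. Here Ephb2 (-0.30), Efna2 (-0.596) and Slit2 (-0.277) were not called. Deviations of libraries with the same number correlated at -0.0811 to 0.0224. No library correlated best with its own number, and no source pairs them. Of 102 family shares, 79 moved when CPM were not divided by exon length. Sema6d, Slit3, Robo1 and Robo2 were tested with edgeR and also given as count ratios, with intervals for counting error. Plxnc1 and Slit1, which were not tested, were compared by count ratios alone.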
